A study of Mus musculus with 24 samples.

Results

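Bulk RNA sequencing compared Cenpj mutant with control small intestine of the E11.5 mouse embryo, over all genes and with 4 libraries of each genotype, 8 of the 24 libraries of the series. Libraries were assigned by the organ and genotype that the labels give. Controls were ShhCre Cenpj+/lox and mutants ShhCre Cenpj-/lox, so all 8 carried Cre recombinase at Shh, a gene active in the gut epithelium, and a conditional allele of Cenpj. Where Cre acts, a control cell keeps 1 working copy of Cenpj and a mutant cell keeps none, and in all other cells of the organ the mutant has 1 working copy. Another group of 4 intestine libraries, ShhCre Ift88-/lox, in which a gene needed to build cilia is deleted instead, helped to estimate the spread between libraries. RNA came from the whole dissected organ, so epithelium, mesenchyme, nerve, vessel and blood cells were measured together. In such samples fewer cells of a type and less RNA per cell cannot be told apart. The labels do not say that the libraries of a group came from separate embryos, so the p-values measure only the spread between these libraries.

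Cenpj encodes a centriole protein without which new centrioles are not built. In mouse embryos, cells without centrioles take longer over mitosis, and a mitotic surveillance pathway that runs through Trp53bp1 and Usp28 then activates the transcription factor p53, whose targets arrest or kill the cell. Centrioles also form the base of the primary cilium, the organelle in which hedgehog signals are read. In the embryonic gut the epithelium makes the ligands Shh and Ihh, and the surrounding mesenchyme answers with Gli1, Ptch1 and other targets.

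No gene passed the test in Cenpj mutant intestine. With limma on log2(normalized count + 1), calling a gene at a p under 0.05 after Benjamini-Hochberg adjustment, 0 of 31592 genes (0%) were called, and the smallest adjusted p was 0.222. On recovered reads edgeR called 0 genes, with 1719 at an unadjusted p under 0.05, and DESeq2 called 51. Genes at an unadjusted p under 0.05 numbered 1616 (5.12%), 888 higher in mutants (2.81%) and 728 lower (2.3%). In 700 genes (2.22%) all 4 libraries of one genotype lay above all 4 of the other, 411 with the mutants above (1.3%) and 289 with the mutants below (0.915%). Over all genes tested 51.1% of the log2 differences were above 0, with a median of 0.01. For the 14913 genes whose mean log2 CPM reached 1, the median 95% interval reached 0.32 to each side on the log2 scale. Differences much smaller than this could not be resolved in most of these genes. The plot of all genes shows where the genes named below lie in this spread.

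**Figure D1:**
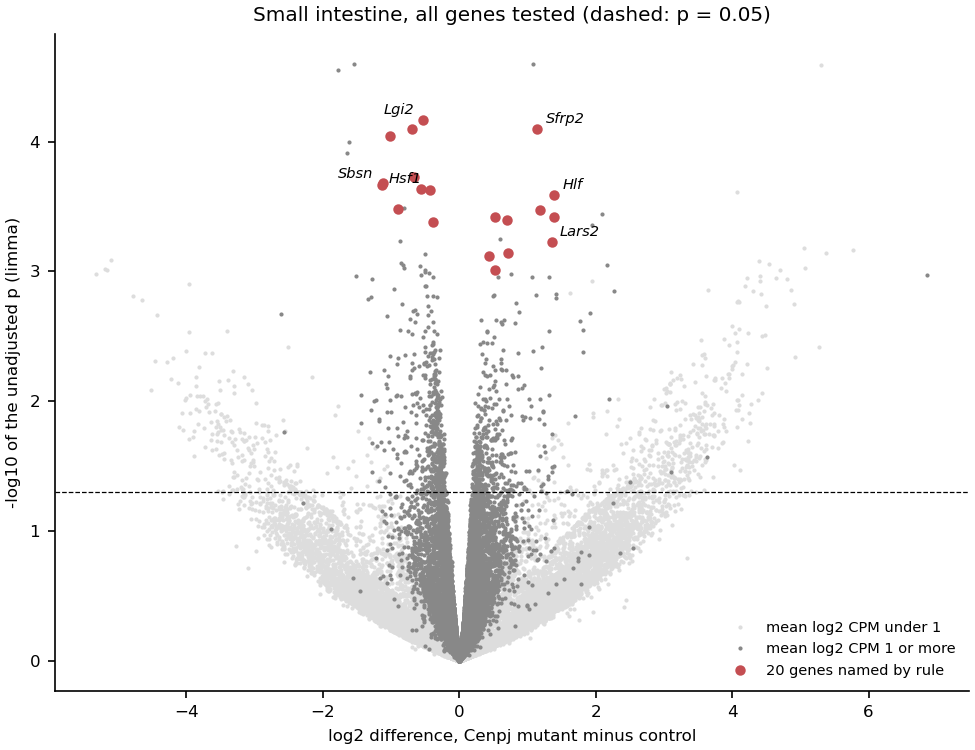
Each point is 1 of 31592 genes tested in small intestine, with the log2 difference between Cenpj mutants and controls on the x axis and the -log10 of the unadjusted limma p on the y axis. The 20 genes named by rule (red) lie among the smallest p-values on both sides, and none of them has an adjusted p under 0.05.

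The 8 libraries held 96.3 to 112.6 M recovered reads and 21994 to 25248 detected genes. Neither measure separated the genotypes (exact two-sided permutation test, 4 against 4 libraries, p = 0.714 for reads and p = 0.571 for genes, where 0.0286 is the smallest p possible). Ribosomal RNA took 1039, 2742, 368 and 392 reads per M reads in controls 1 to 4, and 2519, 3132, 4332 and 3941 in mutants 1 to 4 (exact permutation p = 0.0571). Control 2 was thus the only control with as much ribosomal RNA as the mutants, and the small nuclear RNA Rn7sk divided the libraries in the same way. Libraries with over 2000 ribosomal reads per M reads and over 500 normalized counts of Rn7sk are called ribosomal-rich below. Control 1 was male, mutant 1 held RNA of both sexes, and the other 6 libraries were female by Xist and Ddx3y. Libraries correlated at 0.911 to 0.938 among controls, 0.92 to 0.934 among mutants and 0.913 to 0.938 between the genotypes.

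The tissue label was checked against markers of small intestine. The epithelial genes Epcam (5116 to 9673 normalized counts) and Isx (702 to 1689), the gut mesenchyme genes Foxf1 (25169 to 39075) and Hlx (8807 to 16298), and the enteric neural crest genes Ret (6588 to 17511) and Sox10 (2398 to 6420) were present in all 8 libraries. The intestinal transcription factor gene Cdx2 ranged from 629 to 1911. Genes used as markers of neighbouring organs varied in level within both genotypes. Whether their RNA came from those organs was not tested. The stomach gene Barx1 stood at 26089 to 41203, the pancreatic gene Pdx1 at 476 to 1917 and the liver gene Afp at 1008 to 4443 in 7 libraries and at 27171 in mutant 2. The lung genes Nkx2-1 and Sftpc were at 0 in 7 and 6 of the 8 libraries and reached at most 14.2 and 11.7. The hindgut gene Hoxd13 was at 882 in control 1, 75.3 and 87.1 in mutants 1 and 2, and 0 in the other 5.

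Cenpj itself, on chromosome 14, was measured first because it checks the labels. The controls held 3365, 3631, 4537 and 2674 normalized counts and the mutants 2084, 2733, 3114 and 2472. The lowest control fell inside the mutant range, and the other 3 controls lay above every mutant. The log2 difference was -0.44 (95% interval -0.77 to -0.11, adjusted p = 0.878). The file gives 1 value per gene, so reads from the deleted and the intact parts of Cenpj were not separated here.

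Genes that p53 switches on showed no common shift in mutant intestine. Of 44 p53 targets tested, 24 lay above 0 and 20 below, with a median log2 difference of 0.04 beside 0.01 for all genes tested. At an unadjusted p under 0.05 there were 2 higher and 3 lower, 11.4% of the list beside 5.12% of all genes, and none was called. The groups did not overlap in 2 of the 44, Exoc4 upward and Ddb2 downward, beside 2.22% of all genes.

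Cdkn1a encodes p21, the inhibitor that carries out the p53 cell cycle arrest. Its normalized counts were 1451, 1421, 2205 and 1038 in controls and 1560, 1621, 1358 and 1704 in mutants. All 4 mutants lay inside the range of the controls. The log2 difference of 0.08 had a 95% interval from -0.51 to 0.67. In lung, the same contrast of genotypes gave 1.92 (adjusted p = 0.00682), with 462 to 967 normalized counts in the 4 controls and 1488 to 4745 in the 4 mutants. The lung comparison used other libraries throughout, and limma called 161 of 31361 genes in it (0.513%).

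Ccng1, a cyclin G gene that p53 induces in many tissues, held 3926, 4677, 3443 and 4026 normalized counts in controls and 5158, 4291, 5017 and 4700 in mutants. The mutants lay above every control except mutant 2, which lay inside the control range, and the log2 difference was 0.26 (interval 0.01 to 0.50, adjusted p = 0.906), beside 1.11 in lung. Exoc4, an exocyst subunit gene in the list, held 8408, 7817, 7956 and 7773 in controls and 10525, 10295, 9034 and 9632 in mutants. Its log2 difference was 0.30 (interval 0.11 to 0.49, adjusted p = 0.774), beside 0.49 in lung (adjusted p = 0.0366). Eda2r, a death receptor gene, stood at 0.68 with an interval from -0.27 to 1.63 and overlapping groups, beside 2.06 in lung. On the lower side were Zmat3 (-0.33), which encodes an RNA-binding protein, Pidd1 (-0.32), which encodes the scaffold of the caspase-2 platform, and Plcd4 (-2.84), a phospholipase gene with at most 103 normalized counts in any of the 8 libraries. The plot of p53 targets sets the 2 organs side by side.

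**Figure D2:**
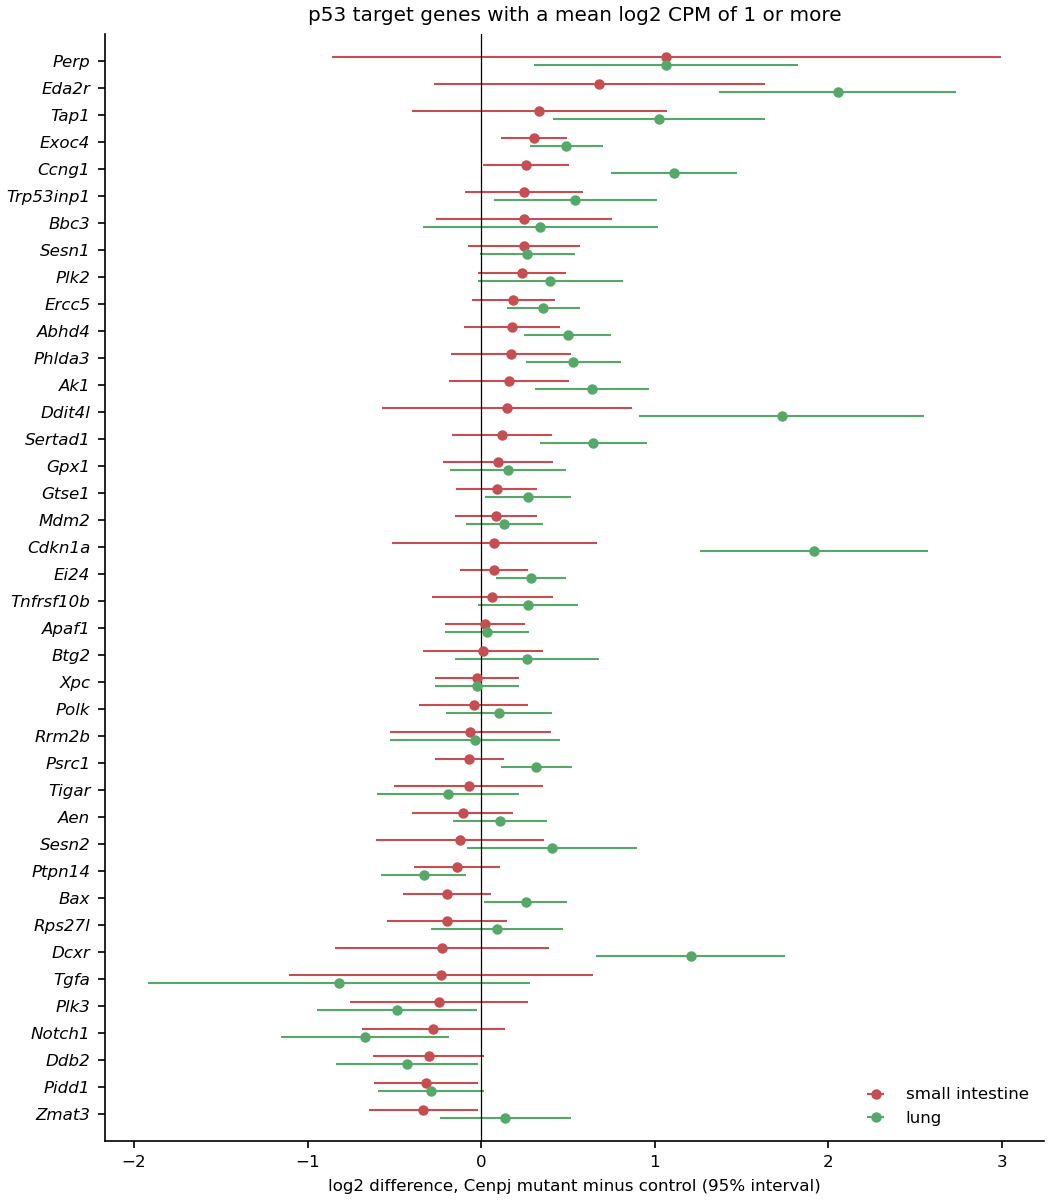
Log2 difference between Cenpj mutants and controls, with its 95% interval, for the 40 p53 targets whose mean log2 CPM reached 1, in small intestine (red) and lung (green). The intestine values lie around 0, while Cdkn1a, Ccng1, Eda2r, Ddit4l, Dcxr, Perp and Tap1 lie above 1 in lung.

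Whether the effect differs between the organs was tested directly, as the lung difference minus the intestine difference over all 24 libraries. No gene passed with limma (0 of 32098, 0%), and 1528 (4.76%) had an unadjusted p under 0.05, while DESeq2 called 44. In the p53 list 9 of 44 had an unadjusted p under 0.05, all with the larger value in lung. The difference was 1.84 for Cdkn1a (unadjusted p = 0.000545), 0.85 for Ccng1, 1.38 for Eda2r and 1.43 for Dcxr, a xylulose reductase gene. For Exoc4 it was 0.19 and for Mdm2, the gene of the ligase that degrades p53, 0.05. The median over the list was 0.27 in lung and 0.04 in intestine.

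Sensors upstream of p53 lay close to 0. Of 16 genes of mitotic surveillance and DNA damage sensing, 6 lay above 0 and the median was -0.03. Trp53, which encodes p53, stood at 0.12 (interval -0.13 to 0.37), Trp53bp1 at -0.03 (-0.22 to 0.15) and Usp28 at -0.10 (-0.31 to 0.11). Chek2, a checkpoint kinase gene, was the one of the 16 whose groups did not overlap, beside 2.22% of all genes. It held 3267, 3064, 2838 and 2966 normalized counts in controls and 2160, 2323, 2318 and 2698 in mutants. Its log2 difference was -0.36 (interval -0.63 to -0.09, adjusted p = 0.878).

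Cell death genes had no called member either. Of 26 apoptosis regulators 15 lay above 0, the median was 0.02, and no member had groups that did not overlap. At an unadjusted p under 0.05 there were 1 higher and 0 lower. The p53-induced killers Bbc3 (0.25) and Pmaip1 (-0.36) and the pore-forming Bax (-0.19) had intervals that include 0, and for Bax the lung difference was larger by 0.45 (unadjusted p = 0.00737).

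Genes of cell division lay close to 0. The 25 mitosis genes had a median log2 difference of 0.001 and ranged from -0.20 to 0.09, and the 24 genes of DNA replication and G1/S had a median of 0.08. None of these 49 had an unadjusted p under 0.05. Ccnb1, the mitotic cyclin gene, stood at -0.01 (interval -0.22 to 0.21) and Mki67, a marker of proliferating cells, at 0.06 (-0.17 to 0.30).

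Among 27 centriole assembly genes, 2 were at an unadjusted p under 0.05, Cenpj and Wdr90, and the median was -0.03. Wdr90, which encodes a protein of the centriole wall, held 8402, 6991, 10464 and 8677 normalized counts in controls and 5030, 6670, 6127 and 6507 in mutants. The groups did not overlap, and the log2 difference was -0.50 (interval -0.76 to -0.24, adjusted p = 0.558), beside -0.56 in lung (adjusted p = 0.0366). The partners of Cenpj in building new centrioles lay close to 0, with the master kinase gene Plk4 at -0.05 (interval -0.25 to 0.15), the cartwheel gene Sass6 at -0.05 and Stil at -0.07. The 36 genes of the primary cilium and intraflagellar transport had a median of 0.01, and Kif7, a ciliary regulator of Gli proteins, was the one at an unadjusted p under 0.05 (-0.27, interval -0.53 to -0.02). Ift88 stood at 0.12 (interval -0.14 to 0.38).

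No hedgehog gene was called. The sign of both list medians turned when library kind was added as a term over the 12 intestine libraries. That fit sets the mutants against control 2 alone. With the term fitted over all 24 libraries, the median of the signalling list turned and that of the target list did not. Of 13 ligand and signalling genes 4 lay above 0 and the median was -0.04, beside 0.10 with the term over 12 libraries. It was 0.05 with the term fitted over all 24 libraries. The ligand gene Shh held 1149, 626, 1268 and 2142 normalized counts in controls and 985, 1289, 439 and 604 in mutants, and Ihh held 1756, 805, 1962 and 1512 in controls and 1779, 635, 614 and 872 in mutants. For both ligands the groups overlapped, and the log2 differences were -0.63 (interval -1.43 to 0.16) and -0.70 (interval -1.64 to 0.24). Smo, the membrane protein that passes the signal on, stood at -0.04 (interval -0.25 to 0.16).

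Of 17 hedgehog targets of gut mesenchyme, 4 lay above 0. At an unadjusted p under 0.05, 1 was higher and 2 lower, 17.6% of the list beside 5.12% of all genes. The median was -0.10, beside 0.12 with library kind as a term over the 12 intestine libraries and -0.09 over all 24. In lung the median of this list was -0.24, with 0 members called higher and 2 lower, beside 0.513% of all genes called there. Gli1, the transcription factor gene that most directly reports the signal, held 16081, 10782, 17139 and 20737 normalized counts in controls and 11013, 13791, 11875 and 13326 in mutants. Control 2 lay below every mutant and the other 3 controls above every mutant, so the log2 difference of -0.34 (interval -0.68 to -0.001, adjusted p = 0.906) became -0.52 without control 2 (adjusted p = 0.172). It was 0.21 with library kind as a term over the 12 intestine libraries, and its direction did not turn with the term over all 24. The receptor gene Ptch1 had the same layout, with control 2 at 24016, the other controls at 39785 to 40807 and the mutants at 24244 to 32664. Its log2 difference was -0.29 (interval -0.65 to 0.07). Nkx2-3, a homeobox gene of gut mesenchyme, held 9478, 8548, 7012 and 9022 in controls and 8523, 5918, 5603 and 6415 in mutants, a log2 difference of -0.37 (interval -0.73 to -0.02) with mutant 1 inside the control range.

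Osr1, an odd-skipped transcription factor gene in the same list, was one of the 10 higher genes named by rule. Its normalized counts were 9193, 9396, 10797 and 5936 in controls and 13455, 16215, 12234 and 14944 in mutants. Every mutant lay above every control. The log2 difference was 0.71 (interval 0.34 to 1.08, adjusted p = 0.558), and in lung it was -0.09.

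Secreted Wnt and BMP antagonists included the clearest differences among the signalling genes. Sfrp2, on chromosome 3 at 83766321 to 83774316 (GRCm38, as are all positions here unless stated), encodes a secreted protein that binds Wnt ligands. It held 3764, 3730, 2225 and 1898 normalized counts in controls and 7776, 5379, 4969 and 6856 in mutants. The lowest mutant was above the highest control, a 2.21-fold difference (log2 difference 1.15, SE 0.23, adjusted p = 0.355). Sostdc1, on chromosome 12 at 36314139 to 36318452, encodes a secreted antagonist of BMP and Wnt signals. It held 127, 194, 109 and 176 in controls and 588, 251, 325 and 478 in mutants. Again every mutant was above every control, with a log2 difference of 1.39 (SE 0.32, adjusted p = 0.526).

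The same contrast in lung gave other values, where Sfrp2 stood at 0.04 and Sostdc1 at -0.68, with lung minus intestine at -1.11 (unadjusted p = 0.00152) and -2.07 (unadjusted p = 0.00573). Neither difference passed over all genes. In intestine of Ift88 mutants, Sfrp2 ranged from 3401 to 6686 and Sostdc1 from 544 to 904, so the Sostdc1 values of all 4 lay above every control and the Sfrp2 values overlapped. That comparison shares its 4 controls with the one described here. The plot of single genes shows all 12 libraries.

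**Figure D3:**
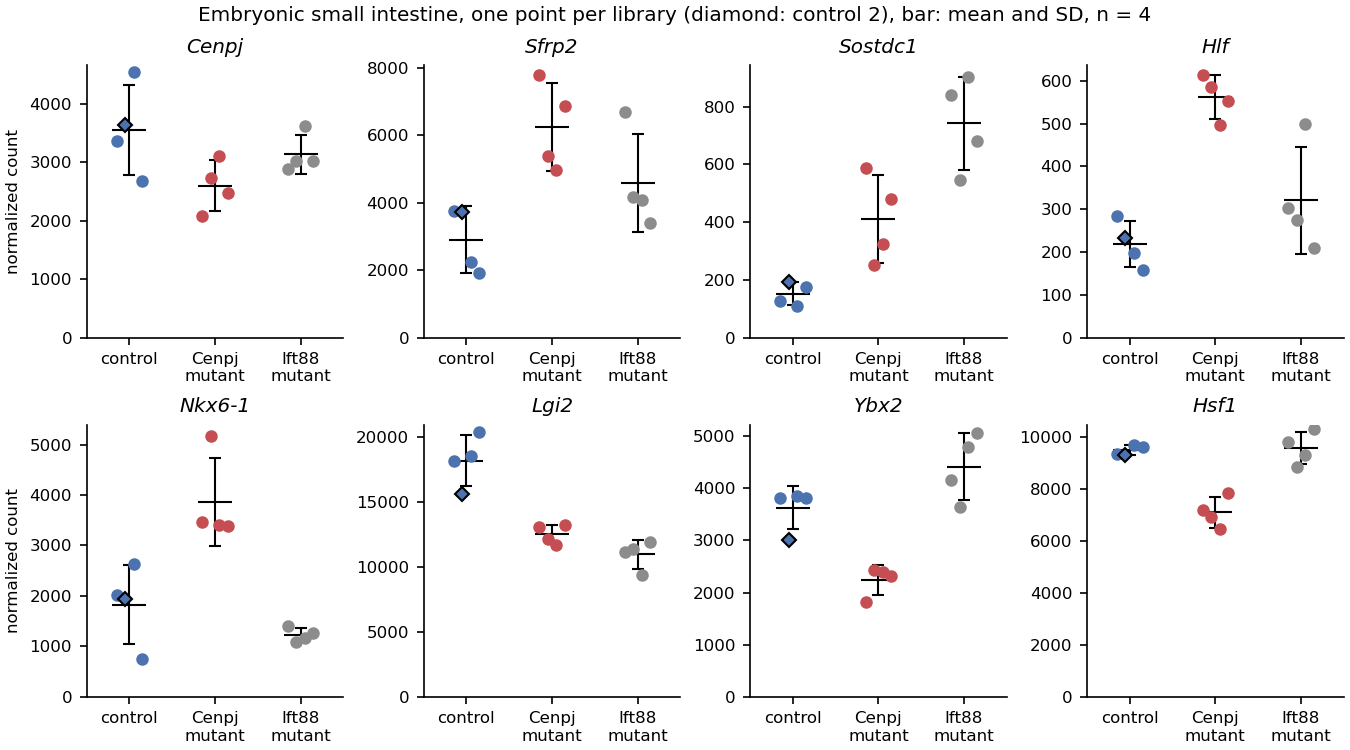
Normalized counts of 8 genes in small intestine, 1 point per library, for controls (blue, control 2 as a diamond), Cenpj mutants (red) and Ift88 mutants (grey), with the mean and SD of each group of 4. Sfrp2, Sostdc1, Hlf and Nkx6-1 lie higher and Lgi2, Ybx2 and Hsf1 lower in every Cenpj mutant than in every control, and Cenpj overlaps.

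Of the 11 secreted Wnt inhibitors tested, 7 lay above 0, with a median of 0.11. Sfrp1 stood at -0.09 (interval -0.48 to 0.30) and Sfrp5 at -0.73 with an interval that includes 0. Among 19 Wnt ligands the median was 0.22, and the median half-width of their intervals was 0.92. Rspo2, an R-spondin gene that amplifies Wnt signals, held 454, 685, 182 and 107 normalized counts in controls and 634, 525, 779 and 698 in mutants. Control 2 lay among the mutants and the other 3 controls below them, and the log2 difference of 1.22 (interval 0.30 to 2.14) was -0.07 with library kind as a term. Wnt3 was listed at 0 in 3 controls and at 2 in control 4, beside 36.2, 1.1, 6.7 and 79.2 in mutants, too few counts for a fold.

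Of 15 Wnt target genes 9 lay above 0 and the median was 0.11, beside -0.42 in lung. Axin2, a feedback inhibitor and general Wnt target, held 3448, 2811, 2826 and 3122 in controls and 3603, 4414, 3084 and 3638 in mutants, a log2 difference of 0.27 (interval -0.0003 to 0.53). Apcdd1, another feedback inhibitor, stood at 0.49 (interval 0.09 to 0.89), with 1983, 962, 1072 and 1161 in controls and 1995, 1831, 1561 and 1611 in mutants. Control 1 reached the mutants in Apcdd1 and the other 3 controls lay below them. The lung values were -0.37 and -0.50. At an unadjusted p under 0.05, 4 of the 15 Wnt targets had a larger value in intestine than in lung. This compares with 927 of the 31592 genes tested in intestine.

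In the BMP and TGF-beta pathway 15 of 20 genes lay above 0, with a median of 0.05. The inhibitory Smad gene Smad7 was the one of the 20 whose groups did not overlap, beside 2.22% of all genes. It held 4044, 3906, 3839 and 3226 in controls and 4719, 4490, 4277 and 4495 in mutants (log2 difference 0.26, adjusted p = 0.906). Tgfb2, a ligand gene, stood at 0.24. Of 20 FGF and ERK target genes 5 lay above 0 and the median was -0.11, with the immediate early gene Egr1 at 0.55 and the receptor genes Fgfr3 and Fgfr4 at -0.42 and -0.66, all 3 at an unadjusted p under 0.05 and none called. The ligand gene Fgf20 was listed at 0 in all 4 controls and in mutant 2, and at 20.5, 33.6 and 19.6 in mutants 1, 3 and 4. Dusp6 (0.14), Etv4 (-0.10) and Spry4 (-0.10), which report ERK activity, had intervals that include 0. The 17 Notch pathway genes had a median of -0.13 and no member at an unadjusted p under 0.05, with the target gene Hes1 at -0.19 (interval -0.47 to 0.09). In the families of guidance receptors and ligands, Sema3d (0.55) and Sema3a (0.31) were the 2 of 24 at an unadjusted p under 0.05.

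The rule takes the smallest p-values among clearly expressed genes with no overlap, leaving out predicted genes. It gave 10 higher and 10 lower genes, Sfrp2, Sostdc1 and Osr1 among them. Hlf, on chromosome 11 at 90336536 to 90390895, encodes a PAR bZIP transcription factor. It held 285, 232, 199 and 159 normalized counts in controls and 614, 587, 497 and 553 in mutants. The log2 difference was 1.39 (SE 0.31, adjusted p = 0.483), with narrow groups far apart. Lung, where Hlf stood at 2564 to 3292 in controls and 2503 to 3034 in mutants, gave -0.05, and the difference between the organs was -1.44 (unadjusted p = 3.31e-05). When library kind was added to a fit of all 24 libraries, Hlf was the only one of the 20 called (log2 difference 1.34, adjusted p = 0.0239).

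Nkx6-1, on chromosome 5 at 101658139 to 101664996, is a homeobox gene of pancreatic progenitors and of other cells. It held 2012, 1930, 2624 and 751 normalized counts in controls and 3470.0, 5177, 3415 and 3384 in mutants, a log2 difference of 1.19 (SE 0.27, adjusted p = 0.526). Other pancreatic markers overlapped between the genotypes. Pdx1 stood at 0.19 (interval -0.66 to 1.05), Cpa1 at 1.01 (-0.76 to 2.78) and Gcg at 0.01 (-1.35 to 1.37), Ptf1a was at 0 in 2 controls and 2 mutants, and the median of 20 pancreatic and enteroendocrine genes was -0.23. In Ift88 mutants Nkx6-1 ranged from 1092 to 1409, inside the range of the controls.

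Klf10, a TGF-beta-inducible zinc finger gene, held 3275, 2548, 3173 and 3208 normalized counts in controls and 3836, 5025, 4305 and 4323 in mutants (log2 difference 0.52). Pdk1, which encodes a kinase that restrains pyruvate dehydrogenase, held 5116, 6504, 5637 and 5289 in controls and 7969, 7207, 7564 and 7789 in mutants (0.44). Zfp709 (0.70) and the complement inhibitor gene Serping1 (0.53) completed this side together with Lars2, described below. The 19 genes of glycolysis and hypoxia, Pdk1 among them, had a median of 0.12, and Pdk1 was their one member at an unadjusted p under 0.05.

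On the lower side Lgi2, on chromosome 5 at 52533517 to 52566462, encodes a secreted protein best known from synapses. It held 18138, 15631, 18574 and 20424 normalized counts in controls and 13084, 12172, 11694 and 13206 in mutants. The log2 difference was -0.53 (SE 0.10, adjusted p = 0.355), and in Ift88 mutants Lgi2 ranged from 9364 to 11948, below every control as well. Ybx2, a gene best known from germ cells, held 3818, 3005, 3860 and 3809 in controls and 1814, 2427, 2404 and 2326 in mutants. Its log2 difference was -0.69 (SE 0.14, adjusted p = 0.355), close to the -0.93 of lung (adjusted p = 0.015). The Ift88 mutants, at 3641 to 5062, lay with the controls.

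Hsf1, the master regulator of the heat shock response, held 9366, 9320, 9708 and 9625 normalized counts in controls and 7194, 6915, 6446 and 7865 in mutants. The controls lay close together and every mutant lay below them, with a log2 difference of -0.42 (SE 0.09, adjusted p = 0.481). Gtpbp2, which encodes a ribosome rescue factor, stood at -0.56, and Hmg20b, which encodes a subunit of a histone demethylase complex, at -0.39. Nat8l, the gene of the enzyme that makes N-acetylaspartate, held 671, 435, 794 and 624 in controls and 298, 295, 272 and 273 in mutants (-1.12). Zfp692 (-0.67), Sbsn (-1.14) and Naaladl1 (-0.90) completed the lower side with Mir5125.

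Mir5125 is shown with its sequence because its value is not that of a mature miRNA. The mature form, from RefSeq on GRCm38.p6 at chr17:23823339-23823358 on the plus strand, is printed 5′ to 3′ with the seed, bases 2 to 8, in capitals.
Mir5125: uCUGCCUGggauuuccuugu

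The miRNA gene lies inside Srrm2, a splicing factor gene on the same strand, and overlaps none of its annotated exons, so intronic reads of Srrm2 and reads of the miRNA precursor cannot be told apart. Mir5125 held 2509, 1893, 2284 and 2463 normalized counts in controls and 993, 1054, 805 and 1866 in mutants. All mutants lay below all controls, and the log2 difference was -1.02 (SE 0.20, adjusted p = 0.355), beside -1.23 in lung (adjusted p = 0.00538). Srrm2, chosen here because it hosts the miRNA, stood at -0.39 (interval -0.69 to -0.09, adjusted p = 0.888), with 168246, 108479, 174378 and 166316 in controls and 104595, 128504, 104944 and 127596 in mutants. Control 2 lay inside the mutant range of Srrm2 and the other 3 controls above it.

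Of these 20 genes, 15 had the same sign in lung, and 3 were called there, Ybx2 and Mir5125 among them, beside 0.513% of all genes. The share of all genes with the same sign in lung comes from a fit that leaves out a control, and is given below with that fit. The 20 were chosen by the p-values of this comparison, so their separation is a description.

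No member of a cell type list was called, and several lists varied widely between libraries of 1 genotype. The 23 intestinal epithelium genes had a median log2 difference of -0.33, with 7 above 0. Control 2 stood at -0.56 from the mean of the controls in the median of this list, the other 3 controls at 0.003 to 0.33, and the mutants at -0.55 to 0.10. The median was 0.25 with library kind as a term, so its sign depended on that choice. Krt20, a gene of mature enterocytes, held 390.4, 522, 653 and 1028 normalized counts in controls and 462, 233, 244 and 396 in mutants (log2 difference -0.93, adjusted p = 0.865). Onecut2, a transcription factor gene, held 2067, 2586, 5102 and 5406 in controls and 1862, 1234, 1997 and 3746 in mutants (-0.77). Gata6, which is also active in mesenchyme, held 4639, 5353, 3582 and 2481 in controls and 5334, 6159, 6196 and 6035 in mutants (0.62). In all 3 genes the genotypes overlapped. Cdx2 (-0.65, interval -1.58 to 0.28), Hnf4a (-0.18) and Epcam (0.04) had intervals that include 0. The 20 general epithelial genes had a median of 0.04, which was -0.22 without control 2. With library kind as a term this median was 0.73 over 12 libraries and 0.21 over 24.

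Gut mesenchyme genes, 23 in number, had a median of 0.002. At an unadjusted p under 0.05 there were 3 higher and 1 lower, 17.4% of the list beside 5.12% of all genes. In 2 of the 23 every mutant lay above every control, beside 1.3% of all genes. Prrx1, a gene of limb and body wall mesenchyme, stood at 1.25 with overlapping groups. Pdgfra (0.20, interval -0.10 to 0.50) and Hlx (-0.08) had intervals that include 0.

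Smooth muscle genes differed widely between libraries. Myh11, the smooth muscle myosin gene, held 1215, 194, 51.0 and 14478 normalized counts in controls and 3755, 118, 147 and 398 in mutants. Acta2 held 8591, 4325, 811 and 55733 in controls and 19243, 1674, 2128 and 5437 in mutants. Control 4 and mutant 1 were high and control 3 and mutant 2 low in both genes. The median of the 14 genes was -0.38, with a median half-width of 1.14. With library kind as a term this median was 0.21 over 12 libraries and -0.02 over 24. The list stood at 1.37 in control 4 and -1.10 in control 3. Enteric neural crest genes were also highest in control 4 and mutant 1, from -0.51 to 1.00 in controls and -0.42 to 0.54 in mutants, with a median difference of 0.09 over 20 genes that was -0.16 without control 2. Ret (-0.22) and Sox10 (0.10) had intervals that include 0. Snap25, a synaptic gene, was the one of 18 neuronal genes at an unadjusted p under 0.05 (-1.29, with 293, 253, 218 and 569 in controls and 262, 55, 59.5 and 295 in mutants).

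Vessel, macrophage and blood cell genes gave medians of -0.003, 0.16 and 0.05. Pecam1 (0.14, interval -0.09 to 0.37), Cdh5 (0.04) and Kdr (0.11) were measured with narrow intervals, and Egfl7, an endothelial gene, stood at -0.30 (interval -0.57 to -0.02). Macrophage genes were low in mutant 2, where Adgre1 held 32.1 normalized counts beside 220.2 to 739 in the other 7 libraries. The embryonic globin gene Hbb-y held 205100.1, 118182, 100588 and 95082 in controls and 324337, 49936, 108792 and 98391 in mutants, high in control 1 and mutant 1 and low in mutant 2. Klf1, an erythroid regulator, stood at 0.77 (interval 0.01 to 1.53) as the one of 15 erythroid genes at an unadjusted p under 0.05.

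Mesothelial genes lay above 0 in 9 of 10, with a median of 0.28, and none reached an unadjusted p under 0.05 (Wt1 at 0.42, interval -0.08 to 0.91). The lists of liver (0.26), mesonephros and gonad (0.34), heart and skeletal muscle (0.49) and lung epithelium (-0.12) had median half-widths of 1.08 to 2.19. Members of the organ lists at an unadjusted p under 0.05 other than Nkx6-1 were scarce. The insulin gene Ins1 held 81.0, 187, 31.2 and 0 in controls and 7.7 in mutant 3 alone, the kidney gene Lhx1 held 125, 49.3, 60.5 and 2 in controls and 22.1 in mutant 3 alone, and the muscle gene Myl3 held 57.7 in control 3 alone and 15.7 to 56.2 in mutants. The heat map of gene lists shows these swings by library.

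**Figure D4:**
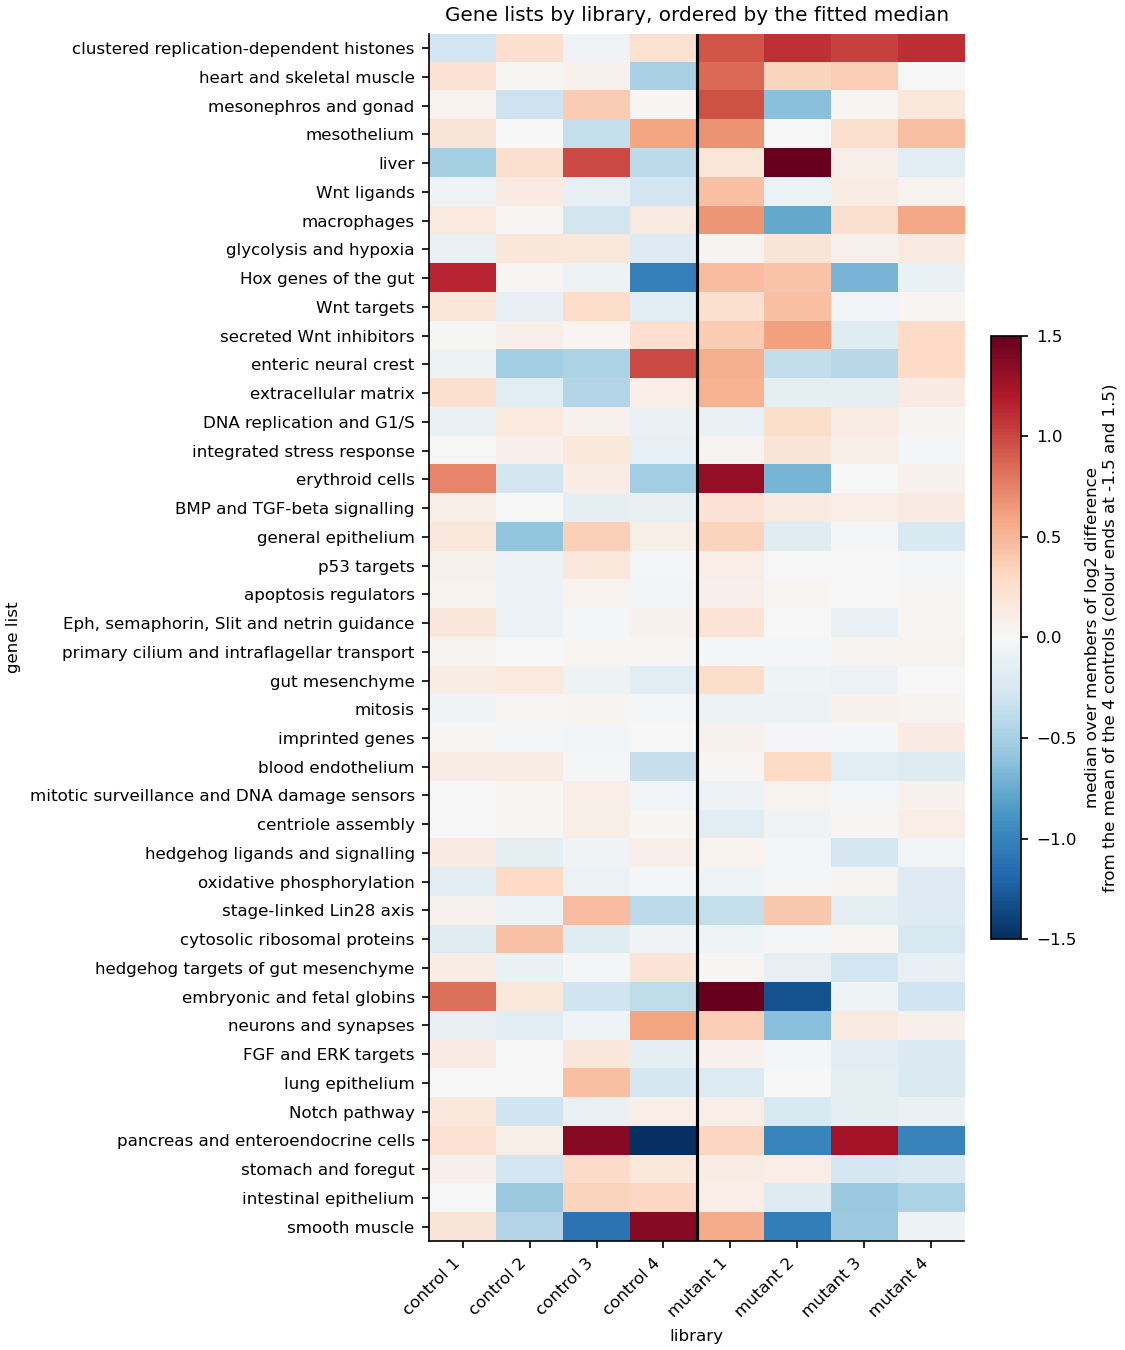
Median over the members of each gene list (rows) of the log2 difference from the mean of the 4 controls, for each of the 8 libraries (columns), with red above and blue below the controls. Histone genes are red in all 4 mutants, while smooth muscle, pancreas, liver, globin and Hox lists vary as much within a genotype as between them.

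Hox genes report how far back along the gut a dissection reaches, since posterior members are active in the hindgut. The median over 30 genes was 0.12, but control 1 stood at 1.14 and control 4 at -1.03. Hoxc10 held 1729 normalized counts in control 1, 676 and 985 in mutants 1 and 2, 26.4 in mutant 4 and 0 in the others, and Hoxd10 held 4232 in control 1, 1853 and 1860 in mutants 1 and 2 and 0 in the others. The anterior gene Hoxa5 stood close to 0 (-0.03, interval -0.25 to 0.19), and Hoxb3 (-0.29, interval -0.54 to -0.05) was the one member at an unadjusted p under 0.05.

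Housekeeping lists lay close to 0. The 30 cytosolic ribosomal protein genes had a median of -0.08 with 6 above 0, and 24 oxidative phosphorylation genes had a median of -0.07 with Ndufa2 (-0.38) the one at an unadjusted p under 0.05. Control 2 stood highest of the 8 libraries in both lists, at 0.43 and 0.29, and the medians were 0.05 in both without it. With library kind as a term they were -0.51 and -0.41 over 12 libraries and -0.27 and -0.20 over 24. The 20 genes of the integrated stress response had a median of 0.07, with Ddit3, the gene of a stress-induced transcription factor, at -0.40. Extracellular matrix (0.08), imprinted genes (-0.001) and the stage-linked genes around Lin28 (-0.07) had no member at an unadjusted p under 0.05, with H19 at 0.06 (interval -0.20 to 0.33), Hmga2 at -0.10 (-0.39 to 0.20) and Lin28a at 0.47 (-0.72 to 1.67).

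Apart from the list of 4 small nuclear and ribosomal RNAs, clustered histone genes were the list with the largest share of members at an unadjusted p under 0.05 (33.3%). These genes are switched on as DNA is copied, and their transcripts end in a stem-loop in place of a poly(A) tail. The stem-loops of the 4 members with the smallest p are shown here because this is the feature their transcripts share. The sequences are from GENCODE transcripts on GRCm38, printed 5′ to 3′, with the stem-loop in capitals.
Hist1h1e: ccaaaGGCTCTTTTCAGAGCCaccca
Hist1h4d: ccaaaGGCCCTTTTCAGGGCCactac
Hist1h1c: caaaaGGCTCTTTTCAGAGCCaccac
Hist1h1d: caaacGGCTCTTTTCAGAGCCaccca

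They lie on chromosome 13, at chr13:23621777-23621802 on the minus strand for Hist1h1e and on the plus strand at chr13:23581945-23581970 for Hist1h4d, chr13:23739507-23739532 for Hist1h1c and chr13:23555782-23555807 for Hist1h1d. A perfect stem of 6 base pairs that starts with GGC and closes the loop TTTC was found, on the transcript strand, in 13 of the 21 histone genes tested and in 42 of 141767 annotated transcripts (0.0296%).

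Of the 21 histone genes, 17 lay above 0, 7 were higher and 0 lower at an unadjusted p under 0.05, and the median log2 difference was 1.31 beside 0.01 for all genes. None was called. Hist1h1e, a linker histone gene, held 0, 101, 1.9 and 19.1 normalized counts in controls and 109, 228, 123 and 293 in mutants, with the lowest mutant just above control 2. It was called without control 2 (adjusted p = 0.0466). Hist1h4d held 119, 329, 81.3 and 111 in controls and 290.4, 415, 445 and 253 in mutants, with control 2 inside the mutant range. Hist1h1c held 623, 624, 631 and 770 in controls and 1271, 1412, 782 and 691 in mutants, a log2 difference of 0.59 (interval 0.13 to 1.04) with mutant 4 inside the control range. Measured per library as the median over the list, the mutants stood at 0.95 to 1.11 above the mean of the controls, control 2 at 0.25 and the other controls at -0.29 to 0.22. The Ift88 mutants, none of them ribosomal-rich, stood at 0.26 to 0.93. In lung the ribosomal-rich control 3 stood at 1.45, among the mutants at 0.81 to 1.80. Summed over the list, normalized counts were 2910.5, 4388, 2933 and 3424 in controls and 4590 to 4817 in mutants, with control 2 closest to the mutants. The median over the list was 0.81 without control 2 and 0.68 with library kind as a term. It fell to 0.29 when the fit holding that term took in all 24 libraries, where Hist1h4d stood at -0.03. How far library kind bears on these genes was not tested apart from that term.

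Library kind coincided with genotype in all libraries but control 2. Rn7sk held 0, 1517, 0 and 14.1 normalized counts in controls and 974.8, 1354, 1987 and 1582 in mutants, with control 2 above 2 of the mutants. Lars2, a mitochondrial leucyl-tRNA synthetase gene and one of the 10 higher genes named by rule, held 17384, 32660, 10913 and 8511 in controls and 34540, 38417, 39169 and 43348 in mutants. Control 2 lay closest to the mutants, and the log2 difference of 1.35 (SE 0.33) was 0.25 with library kind as a term. The plot of genes and control 2 shows this layout.

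**Figure D5:**
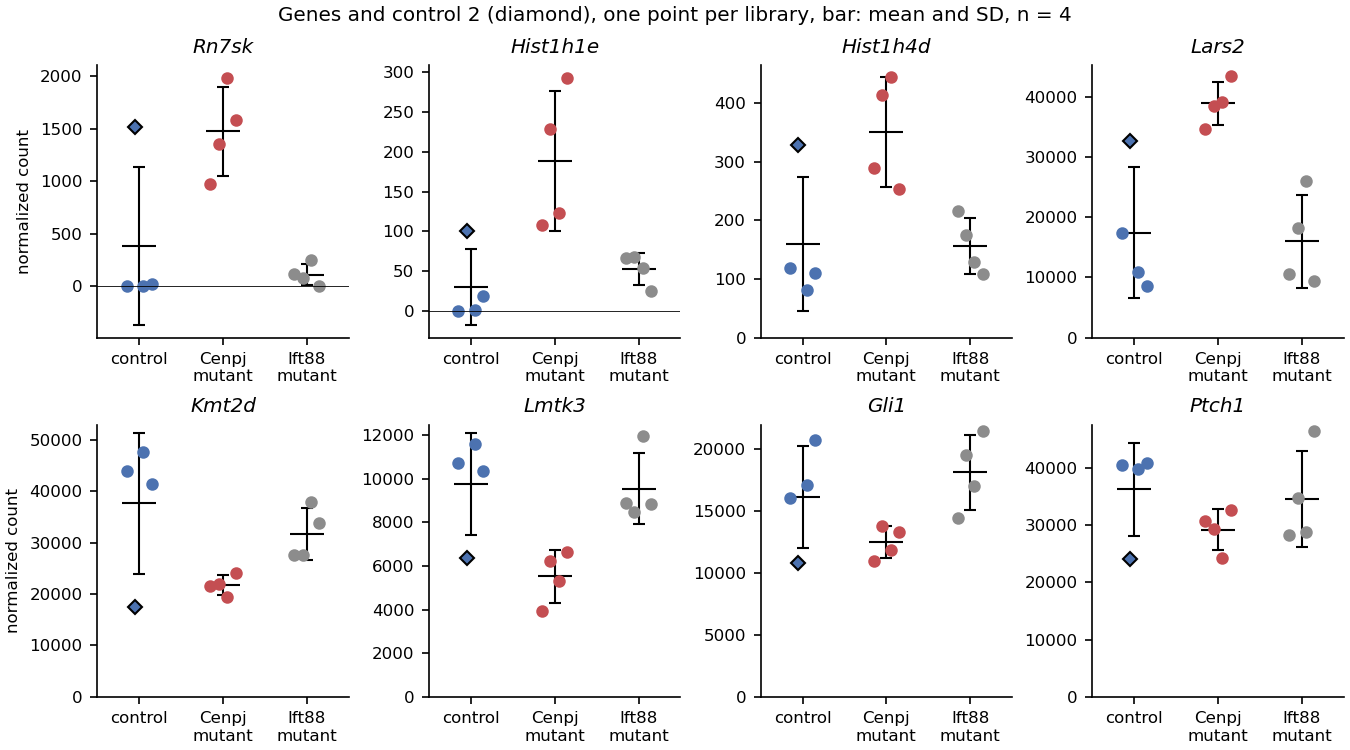
Normalized counts of 8 genes in small intestine, 1 point per library, with the mean and SD of each group of 4 and control 2 drawn as a diamond. Control 2 lies with the Cenpj mutants (red) or beyond them in Rn7sk, Hist1h4d, Kmt2d, Lmtk3, Gli1 and Ptch1, apart from the other 3 controls (blue).

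Without control 2, 37 of 31553 genes were called (0.117%), 11 higher and 26 lower. Kmt2d, a histone H3 lysine 4 methyltransferase gene, held 43953, 17504, 47706 and 41370 normalized counts in controls and 21515, 21996, 19488 and 24056 in mutants. Its log2 difference was -0.69 with control 2, where it was not called, and -1.03 without it (adjusted p = 0.00305). Lmtk3, a kinase gene, held 10728, 6346, 11588 and 10352 in controls and 3917, 6245, 5326 and 6652 in mutants, and was called without control 2 (adjusted p = 0.0246). Mink1 (-0.68) and Mamdc4 (-1.21) were lower, and Rn7sk, Lars2 (1.72) and the ribosomal transcript CT010467.1 (2.71) higher, each called without control 2. Rn7sk and ribosomal reads define library kind, and this fit leaves out the only ribosomal-rich control. The call of Rn7sk is therefore no separate result. The unnamed genes Gm38340 (-1.86) and Gm15564 (2.47) were called as well. All 37 had the same sign in lung, beside 59.2% same sign over all genes in this fit. In lung 20 of the 37 were called, beside 0.513% of all genes. Lung libraries divide by kind in the same way as intestine libraries, with 1 ribosomal-rich control. Of the 20 genes named by rule, 6 were among the 37, namely Sfrp2, Lgi2, Ybx2, Nat8l, Gtpbp2 and Lars2.

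With library kind as a term in the 12 intestine libraries, 568 genes were called (1.8%), and none of the 37 was among them. In that fit control 2 is the only ribosomal-rich library that is not a Cenpj mutant, so the contrast is the mean of the mutants minus control 2 alone. With the term fitted over all 24 libraries 85 genes were called (0.265%), and Lars2 stood at -0.54. Genotype and library kind cannot otherwise be told apart in this comparison.

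DESeq2 on recovered reads called 51 of 26821 genes with an adjusted p (0.19%), 21 higher and 30 lower, and 16 of the 20 genes named by rule were among them. The authors' deposited table called 93 of 29229 genes (0.318%), 43 higher and 50 lower, of which 38 were shared with DESeq2 here, 40.9% of the first list and 74.5% of the second. Of the 93 in the authors' deposited table, 32 had every library of one genotype at 0 and 29 had a value above 0 in 3 or fewer of the 8 libraries. In the authors' deposited table Hlf had a fold of 2.58, Sfrp2 a fold of 2.15 (FDR 0.00208), Hsf1 a fold of 0.748 (FDR 0.001245) and Cenpj a fold of 0.732 (FDR 0.473).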

How the data were processed

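Total RNA of whole small intestine at E11.5 was sequenced in bulk, 4 libraries per genotype. Per the submitters' processing notes, the tools were STAR 2.5.2b and DESeq2 1.16.1 with the mouse build GRCm38. The deposited table holds, per gene and library, counts that the authors divided by a size factor (normalized signal), and the authors' deposited fold, p-value and adjusted p-value for each comparison. Whole reads were recovered from each library's smallest step. The check used values above 0 and up to 500 normalized counts. Of these, 99.8 to 100% lay within 0.051 normalized counts of a rounded whole multiple of the step.

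Genes averaging at least 1 normalized count over the 12 intestine libraries were tested with limma 3.58.1 in R 4.3.3 on log2(normalized count + 1), with group as the only term and trended variance. Such fold changes understate the change of low genes. P-values were adjusted by the Benjamini-Hochberg method over all genes tested. The difference between organs was fitted over 24 libraries. Alternatives were edgeR 4.0.16 and DESeq2 1.42.0 on recovered reads, limma-voom, other pseudocounts, filters and scalings, a replicate block, library kind or sex as a term, and each library left out. The fit was tested on simulated data.

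Gene lists and compared groups were chosen with earlier results of these data known. Genes named by rule are the 10 per direction with the smallest p among those whose mean log2 CPM reached 1 and with no overlap between the groups. Predicted genes, Rik clones, numbered pseudogenes, genes with only an accession for a name and repeated symbols were left out before this choice. Some members of the lists and of the calls are not reported here. Sequences were read from RefSeq and GENCODE tables of GRCm38.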

Additional observations from a re-analysis of the deposited data

Results flagged for a closer look

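Each value below is the highest or lowest of the 4 libraries of its group, with a gap to the nearest of the others that is too large a part of the group's range by Dixon's test at the 95% level. Chance flags about 1 in 20 groups, and 36 of the 278 groups checked were flagged, many of them in genes with values near 0 in the other libraries.

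Control 1 stood apart in Ddx3y (8063, others 0 to 9.1), Hoxc10 (1729, others 0), Hoxd10 (4232, others 0) and Hoxd13 (882, others 0). Control 2 stood apart in Egfl7 (4701, others 3522 to 3572), Hist1h4d (329, others 81.3 to 119), Klf10 (2548, others 3173 to 3275), Pmaip1 (43.7, others 162 to 165), Ptch1 (24016, others 39785 to 40807), Rn7sk (1517, others 0 to 14.1), Srrm2 (108478, others 166316 to 174378) and Ybx2 (3005, others 3809 to 3860.2). Control 3 stood apart in Afp (4443, others 1008 to 1332), Myl3 (57.7, others 0) and Nkx2-1 (14.2, others 0). Control 4 stood apart in Acta2 (55733, others 811 to 8591), Hist1h1c (769.8, others 623 to 630.5), Myh11 (14478, others 51.0 to 1215), Sfrp1 (102459, others 56454 to 63101) and Wnt3 (2.0, others 0). Mutant 1 stood apart in Ddx3y (1438, others 0 to 19.2), Fgfr4 (1047, others 625 to 672), Myh11 (3754, others 118 to 398), Perp (794, others 235 to 239.7), Sftpc (11.7, others 0 to 2.0) and Ybx2 (1814, others 2326 to 2427). Mutant 2 stood apart in Afp (27171, others 1252 to 2508), Eda2r (472, others 246 to 278), Nkx6-1 (5177, others 3384 to 3470.0), Trp53 (35216, others 25804 to 27069) and the number of detected genes (22879, others 24939 to 25073). Mutant 3 stood apart in Ins1 (7.7, others 0) and Lhx1 (22.1, others 0). Mutant 4 stood apart in Epcam (6725, others 8251 to 8363) and Fgfr3 (1978, others 1379 to 1440.2).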

How the results depend on the processing

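No gene was called with limma in the main comparison (0 of 31592, with 1616 at an unadjusted p under 0.05), with edgeR (0, with 1719) or under other pseudocounts, scalings and filters. DESeq2 called 51 genes, 18 of the genes named in the text and 3 list members, and limma-voom called 1 gene. Leaving out each library in turn gave 0 to 37 called genes, 0 to 15 of those named and 0 to 3 list members, with the highest values without control 2 and 1 called gene without mutant 1 or mutant 4. Library kind as a term gave 568, 3 and 5 over 12 libraries, and 85 genes and 1 named gene over 24. Only the female libraries, an alternative chosen after seeing the data, gave 1. For the difference between organs, 2 genes were called with no filter and 44 with DESeq2.

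Among the 68 named genes at an unadjusted p under 0.05, the direction turned in 16 values, all in fits that add library kind. Over 12 libraries the log2 differences became 0.196 for Fgfr4, 0.208 for Gli1, 0.043 for Kif7, 0.31 for Kmt2d, 0.13 for Mamdc4, 0.046 for Mink1, -0.088 for Rn7sk, -0.072 for Rspo2, 0.095 for Srrm2 and -0.065 for Tgfb2. Over 24 libraries they became -0.63 for CT010467.1, 0.019 for Fgfr3, -0.342 for Gm15564, -0.028 for Hist1h4d, -0.542 for Lars2 and -0.086 for Tgfb2. Rn7sk helps to define library kind, so its turn is no separate result. The cause of the turned values was not tested. Of 43 list medians, 17 turned sign with library kind over 12 libraries, 11 with it over 24 and 8 without control 2, or 26 under any of these fits.

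Deviations from the group means correlated at 0.033 to 0.049 between a control and a mutant with the same replicate number. Between those with different numbers they correlated at -0.065 to 0.049. These values do not settle whether the numbers pair the libraries. A replicate block over 8 or 12 libraries gave 0 called genes, with 1599 and 1757 at an unadjusted p under 0.05 in limma, beside 1299 and 1616 without the block.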
